A study of Mus musculus with 2 samples.

Results

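The genes described here are 10 genes grouped as duct-enriched secreted and surface genes: Spp1, Clu, Ambp, Wfdc2, Wfdc18, Dcdc2a, Pdzk1ip1, Vtcn1, Muc1 and Cftr. They were chosen by symbol, out of 27998 genes in the deposited matrices, and all 10 are in the files. Their UMIs (unique molecular identifiers, each standing for a captured transcript) were read in single cells of C57BL/6 mouse pancreas at embryonic day 18.5. There were 2 groups of 1 library each, taken from 1 pancreas each: a library labelled knockout, which the series names Dpy30∆P, and a library labelled control. The sources used here do not give the Cre driver, the deleted part of Dpy30 or the control's alleles.

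The libraries held 33048640 UMIs (knockout-labelled) and 25398522 UMIs (control). Filtering left 3228 and 2607 cells, and the median cell had 6628.5 and 6828 UMIs. With 1 library per group no difference here has a replicate check, and no test was run. The intervals, all at 95%, hold counting error alone: exact Poisson for levels, Clopper-Pearson for shares and exact conditional binomial for ratios. Dpy30, a shared subunit of the TrxG histone methyltransferase complexes, was not lower in knockout-labelled ductal-like cells, at 154 CPM (UMIs per 1000000 UMIs of a class; 143 to 165) against 131 CPM (122 to 140) in control cells. The 3′ tags do not check a deletion whose position is unknown, so the library is called knockout-labelled throughout, and every direction below rests on that label. Xist had 46352 UMIs in the knockout-labelled library and 1 in the control library, while Ddx3y counted 0 and 1569. Sex and genotype therefore cannot be told apart. The cells were resuspended in 250 uL (knockout-labelled) and 500 uL (control), a difference that cannot be told apart from genotype either. The libraries shared 12 barcodes among kept cells.

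Pancreatic ducts are tubes of polarised epithelium that carry the acinar enzymes to the gut and add a bicarbonate-rich fluid. Their cells release matricellular proteins, chaperones and protease inhibitors, and carry mucins, channels and a primary cilium on the face that lines the lumen. In the embryo the same epithelial cords hold bipotent cells that give rise to ducts and, through Neurog3-positive progenitors, to endocrine cells.

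The members play different roles. Spp1 encodes osteopontin, a secreted phosphoprotein that binds integrins, and Clu encodes clusterin, a secreted chaperone. Ambp encodes a precursor that is cut into alpha-1-microglobulin and bikunin, a protease inhibitor. Wfdc2 and Wfdc18 encode small secreted proteins with the four-disulfide core of whey acidic protein. Muc1 is a membrane mucin of the apical surface, Vtcn1 an immune checkpoint protein of the B7 family, and Pdzk1ip1 a small membrane protein that binds PDZ-domain scaffolds. Cftr is the chloride and bicarbonate channel of duct cells. Dcdc2a encodes a doublecortin-domain protein of microtubules and cilia, which is neither secreted nor known as a surface protein, so the group's name does not describe it.

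The genes lie on 8 chromosomes in GRCm38, the build of the deposited counts. Spp1 (ENSMUSG00000029304) spans chr5:104435118-104441050 with 6 exons, Clu (ENSMUSG00000022037) chr14:65968483-65981547 with 9, and Ambp (ENSMUSG00000028356) chr4:63143275-63154799 with 10. Wfdc2 (ENSMUSG00000017723) spans chr2:164562413-164568510 and Wfdc18 (ENSMUSG00000000983) chr11:83709015-83711348, with 5 and 3 exons. Dcdc2a (ENSMUSG00000035910) spans chr13:25056004-25210706, Pdzk1ip1 (ENSMUSG00000028716) chr4:115088708-115093899 and Vtcn1 (ENSMUSG00000051076) chr3:100825459-100896922. Muc1 (ENSMUSG00000042784) spans chr3:89229057-89233381 and Cftr (ENSMUSG00000041301) chr6:18170687-18322768, with 27 exons for Cftr. The libraries count the 3′ ends of transcripts, and the last exon runs from 126 bases in Ambp to 5293 bases in Dcdc2a, so CPM values are not compared between genes. Spp1 overlaps Gm42793 and Cftr overlaps Gm15595 on the same strand, so how the authors' counting shared their reads is not known.

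The promoters of 4 members are shown because these genes lay on both sides of a ratio of 1: Spp1, Dcdc2a and Pdzk1ip1 were lower in knockout-labelled ductal-like cells, and Wfdc18 was higher. Each run is the 250 bases before the RefSeq start site (GRCm38.p6), written 5′ to 3′ on the gene's strand. Capitals mark CpG sites, the dinucleotides that vertebrate DNA methylation acts on.
Spp1, chr5:104434861-104435110, plus strand: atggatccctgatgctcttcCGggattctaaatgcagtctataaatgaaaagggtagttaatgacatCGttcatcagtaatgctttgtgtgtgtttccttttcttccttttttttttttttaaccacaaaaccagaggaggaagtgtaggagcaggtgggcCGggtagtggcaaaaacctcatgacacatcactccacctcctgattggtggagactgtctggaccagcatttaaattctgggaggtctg
Dcdc2a, chr13:25055754-25056003, plus strand: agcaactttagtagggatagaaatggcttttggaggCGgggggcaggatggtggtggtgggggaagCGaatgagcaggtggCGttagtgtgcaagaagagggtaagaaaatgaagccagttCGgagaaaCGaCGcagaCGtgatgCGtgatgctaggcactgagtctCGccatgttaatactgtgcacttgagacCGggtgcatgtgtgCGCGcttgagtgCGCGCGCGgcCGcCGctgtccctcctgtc
Pdzk1ip1, chr4:115088458-115088707, plus strand: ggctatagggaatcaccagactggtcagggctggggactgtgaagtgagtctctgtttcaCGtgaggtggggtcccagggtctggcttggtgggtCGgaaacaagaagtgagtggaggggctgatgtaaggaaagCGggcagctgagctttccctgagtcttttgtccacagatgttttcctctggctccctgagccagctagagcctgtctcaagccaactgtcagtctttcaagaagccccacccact
Wfdc18, chr11:83708754-83709003, plus strand: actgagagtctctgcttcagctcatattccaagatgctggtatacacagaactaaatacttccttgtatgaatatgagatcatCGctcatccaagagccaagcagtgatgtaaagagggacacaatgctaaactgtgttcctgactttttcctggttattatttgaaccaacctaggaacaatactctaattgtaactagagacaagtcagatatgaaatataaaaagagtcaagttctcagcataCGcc
A RefSeq window was given for 9 members, all but Clu. The windows of Spp1, Ambp, Wfdc18, Pdzk1ip1, Vtcn1 and Muc1 held 2 to 5 CpG sites, and those of Wfdc2, Dcdc2a and Cftr held 14, 18 and 30. The median of all 32851 windows of that length was 6, and 49.6% of them held at most 5. Short motifs were searched on both strands of the same windows. The ONECUT motif ATTGAT was in none of the 9 genes' windows and in 6.72% of all windows. The TEAD motif GGAATG was in Muc1 only, against 12.6% of all windows, and the RBPJ motif GTGGGAA in Wfdc2 only, against 5.42%. The cyclic AMP response element TGACGTCA was in none of them, against 1.55%. These motifs do not overlap one another in the windows, and a match is a description of letters.

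Ductal-like cells numbered 386 in the knockout-labelled library and 504 in the control library, and they carried all 18 of the duct marker genes used to name them, which exclude the 10 members. They came from 2 clusters. Cluster 2 held 167 knockout-labelled and 350 control cells, and cluster 7 held 219 and 154. Cluster 7 therefore made up 56.7% of knockout-labelled and 30.6% of control ductal-like cells. The members took no part in the clustering, so their levels did not place cells in either cluster.

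Most of the genes had their highest level in ductal-like cells, although for several of them another class came close. Over the 9 cell classes of at least 50 cells in each library, 9 members in the knockout-labelled library and 8 in the control library had their highest level in ductal-like cells. Spp1 had 6710 CPM (6637 to 6784) in knockout-labelled ductal-like cells and 9484 CPM (9405 to 9564) in control ones. In endothelial-like cells, where any signal was read as free RNA from broken cells, Spp1 had 16.6 and 31.5 CPM. Clu had 3733 and 5265 CPM in ductal-like cells and 37.1 and 13.4 CPM in endothelial-like cells. Dcdc2a was largely limited to the ductal-like and endocrine progenitor-like classes, with 190 and 275 CPM in ductal-like cells, 94.8 and 158 CPM in progenitor-like cells, and at most 5.00 and 8.77 CPM in the next class, acinar-like cells.

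The order of classes below ductal-like cells was alike for most members. Endocrine progenitor-like cells came next for Spp1, Clu, Ambp, Wfdc2, Dcdc2a, Pdzk1ip1, Vtcn1 and Muc1 in both libraries, followed by acinar-like cells for all of them but Pdzk1ip1, whose next class was alpha-like cells. Several neighbours in that order could not be separated: the intervals of ductal-like and progenitor-like cells overlapped for Vtcn1 in both libraries, for Muc1 in the knockout-labelled library (161 and 154 CPM) and for Ambp in the control library (1173 and 1061 CPM). In knockout-labelled progenitor-like cells 65.3% had an Spp1 UMI, against 66.7% of control ones; after thinning every cell to 2000 UMIs these shares were 54.7% and 52.6%. Endothelial-like cells gave 13.4% and 22.3%, and 2.61% and 5.14% after thinning. Median depths were 7430 and 6814 UMIs in progenitor-like cells and 7338 and 7830 UMIs in endothelial-like cells.

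**Figure D1:**
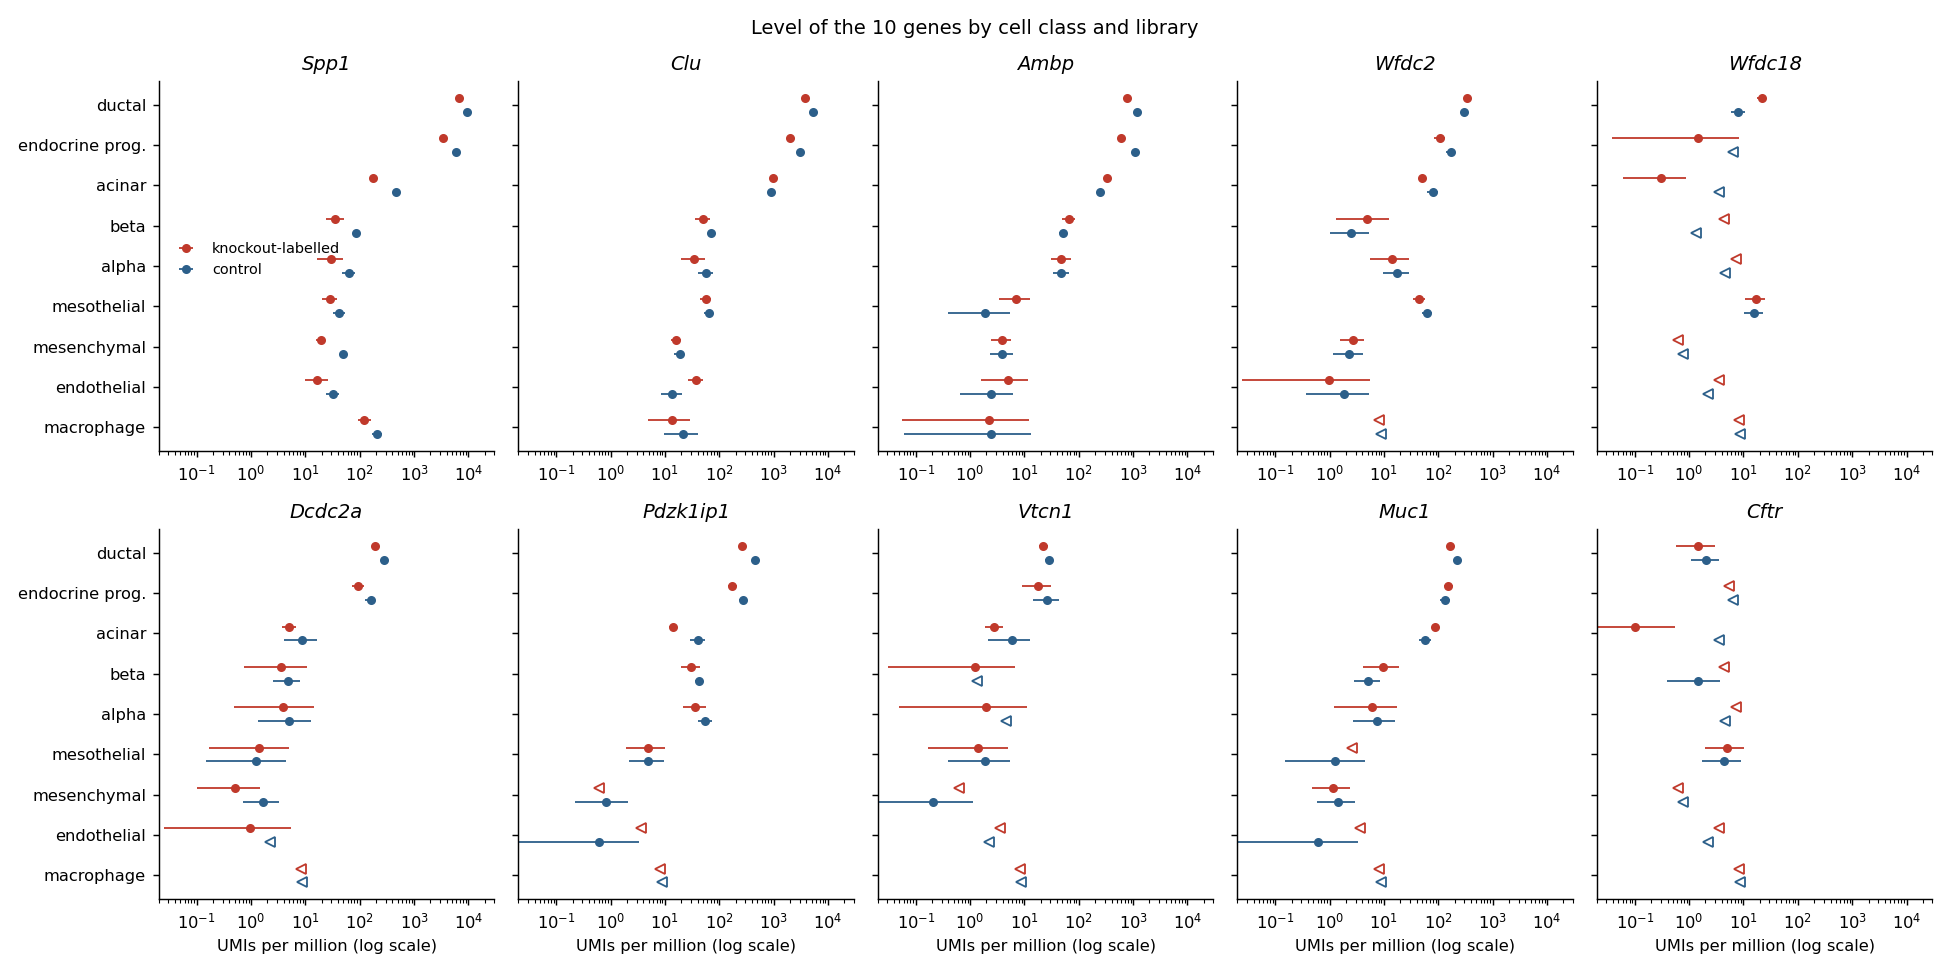
Level of each gene in CPM (log axis) in 9 cell classes, for the knockout-labelled library (red, upper point) and the control library (blue, lower point), with 95% Poisson intervals; some bars are cut at the left edge, and open triangles stand at the upper bound where no UMI was counted. Ductal-like cells lead for every gene but Cftr in the knockout-labelled library and for every gene but Wfdc18 and Cftr in the control library.

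Wfdc18 and Cftr followed another order, and both were also found in mesothelial-like cells, the lining of the organ. Wfdc18 had 21.8 CPM (17.8 to 26.4) in knockout-labelled ductal-like cells and 8.09 CPM (5.95 to 10.8) in control ones, and 16.7 CPM (10.7 to 24.9) and 15.5 CPM (10.1 to 22.9) in mesothelial-like cells. Ductal-like and mesothelial-like intervals overlapped in both libraries. Outside those classes it had 4 UMIs in the knockout-labelled library, 3 in acinar-like and 1 in progenitor-like cells, and none in the control library, over the 9 classes. Cftr had 1.45 CPM (0.584 to 2.99) and 2.07 CPM (1.07 to 3.61) in ductal-like cells, from 7 and 12 UMIs, each in a different cell. In mesothelial-like cells it had 4.87 CPM (1.96 to 10.0) and 4.35 CPM (1.75 to 8.96), from 7 UMIs in each library. These intervals overlap too, so no order between the classes can be read for Cftr at this depth.

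The same cells can be counted by share. Of knockout-labelled ductal-like cells 10.6% (7.73 to 14.1) had a Wfdc18 UMI, against 4.37% (2.75 to 6.53) of control ones; after thinning the shares were 3.92% and 1.41%. In mesothelial-like cells the shares were 10.7% and 7.91%, and 3.78% and 4.74% after thinning. In endothelial-like cells 0 of 119 knockout-labelled and 0 of 179 control cells had a UMI of Wfdc18, and likewise of Cftr, which allows shares of up to 2.52% and 1.68%, taken as 3 counts over the number of cells and not as a Clopper-Pearson bound. Mesothelial-like cells had medians of 6607 and 6599 UMIs, below the 10300 and 9752 UMIs of ductal-like cells.

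**Figure D2:**
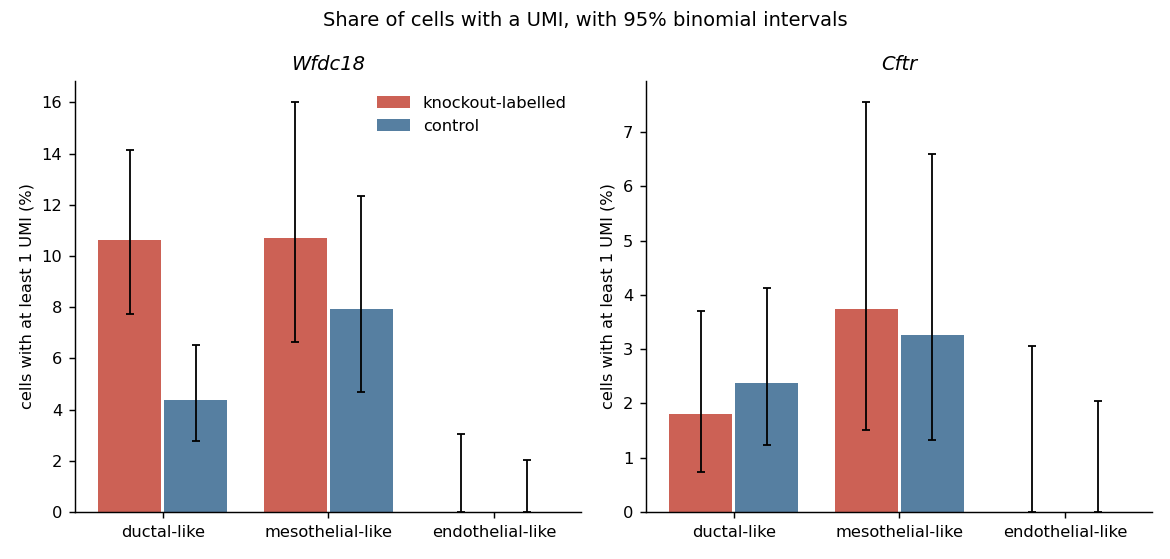
Share of cells with at least 1 UMI of Wfdc18 (left) and Cftr (right) in ductal-like, mesothelial-like and endothelial-like cells of the knockout-labelled (red) and control (blue) library, with 95% binomial intervals. For Wfdc18 the knockout-labelled ductal-like bar, at 10.6%, stands above the control bar, at 4.37%, while both mesothelial-like bars and all Cftr bars have overlapping intervals.

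In ductal-like cells as a whole, most of the genes were lower in the knockout-labelled library, and the Wfdc genes stood apart. Of the 9 members with at least 100 UMIs, 7 had at most 4/5 of the control level, the rule used here for lower by the fold, which 10.6% of all 8196 measured genes met. At least 5/4 of the control level, the rule for higher by the fold, was reached by 1 member and by 11.0% of all genes. Cftr had too few UMIs. The median log2 ratio was -0.50 over the 9 members and 0.03 over all measured genes.

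Among the secreted proteins, osteopontin (Spp1, levels above) had a ratio of knockout-labelled to control level of 0.708 (0.698 to 0.717) and clusterin (Clu) of 0.709 (0.696 to 0.722). Ambp had 783 CPM in knockout-labelled and 1173 CPM in control ductal-like cells, a ratio of 0.668 (0.642 to 0.695). The whey acidic protein family members lay the other way. Wfdc2 had 332 CPM and 296 CPM, a ratio of 1.12 with a lower bound of 1.05, which is above 1 but short of the fold. Wfdc18 had 105 UMIs against 47 UMIs, a ratio of 2.69 (1.89 to 3.88). A single knockout-labelled cell held 34 of these UMIs and a single control cell 17; without those 2 cells the ratio was 2.84 (1.83 to 4.51). It was 1.36 with no limit on mitochondrial UMIs and 1.59 at a Leiden resolution of 2, each from under 100 UMIs and so without a call.

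The genes of membrane proteins were lower as well. Pdzk1ip1 had the lowest ratio of the measured members, with 258 CPM in knockout-labelled and 449 CPM in control ductal-like cells and a ratio of 0.575 (0.537 to 0.616). Muc1 had 161 and 219 CPM, a ratio of 0.738 (0.674 to 0.807). Vtcn1 had 22.2 and 27.9 CPM, and although its ratio of 0.796 is past the fold, its interval (0.617 to 1.02) includes 1. The ciliary gene Dcdc2a had a ratio of 0.691 with a lower bound of 0.636. Cftr had a ratio of 0.703 with an interval of 0.234 to 1.94, so no direction was detectable at this depth.

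The difference was unevenly spread over the 2 ductal-like clusters. In cluster 2, led by Ces1d and Spp1, most measured members were within the fold, although several of their ratio intervals do not include 1. There, 1 of 8 measured members was lower by the fold, against 9.77% of all 5937 measured genes, and none was higher, against 8.52%. That member was Pdzk1ip1, with 381 CPM in knockout-labelled and 496 CPM in control cells, a ratio of 0.769 (0.704 to 0.839). Spp1 had 9268 and 10200 CPM, a ratio of 0.909 (0.893 to 0.925), Clu one of 0.955 (0.933 to 0.977) and Muc1 one of 0.991 (0.883 to 1.11). Ambp had a ratio of 0.884 (0.839 to 0.931), Dcdc2a one of 0.852 (0.763 to 0.951) and Wfdc2 one of 1.16 (1.05 to 1.28). Vtcn1 had 37.2 and 30.5 CPM, a ratio of 1.22 (0.893 to 1.66), on the other side of 1 from its ratio over all ductal-like cells.

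Cluster 7, led by Gm37350, Gm14226 and Akr1cl and holding Onecut1 among its 10 leading genes, carried most of the difference in level. Leading genes are set against all other cells, and Onecut1 was no higher there (52.3 and 61.1 CPM) than in cluster 2 (57.6 and 63.0 CPM). Of the 8 members measured in cluster 7, 6 were lower by the fold, against 14.8% of all 5661 measured genes, and Wfdc18 was higher, against 13.7%. Without the cell of each library with most Wfdc18 UMIs, too few UMIs remained for that call, while the ratio stayed above 1. Spp1 had 5108 CPM (5027 to 5190) in knockout-labelled and 8085 CPM (7959 to 8211) in control cells of this cluster, a ratio of 0.632. Clu had 2601 and 4214 CPM, a ratio of 0.617 (0.598 to 0.637). Ambp had 581 and 1018 CPM, a ratio of 0.571 (0.535 to 0.609). Each of these ratios lies further from 1 than the same gene's ratio in cluster 2, and the intervals of the 2 clusters do not overlap.

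Pdzk1ip1, Muc1 and Dcdc2a were lower in cluster 7 too, while Vtcn1 (38 and 45 UMIs) and Cftr (2 and 4 UMIs) had too few UMIs for a call. Pdzk1ip1 had 182 CPM in knockout-labelled and 358 CPM in control cells, a ratio of 0.507 (0.453 to 0.568), and Muc1 had 112 and 172 CPM, a ratio of 0.649 (0.556 to 0.758). Dcdc2a had a ratio of 0.634 (0.556 to 0.722). Wfdc2 did not follow, at 335 and 324 CPM, its ratio being 1.03 (0.935 to 1.14). Wfdc18 had 32.4 CPM and 12.7 CPM, from 96 UMIs in 37 cells and 25 UMIs in 9 cells, a ratio of 2.55 (1.63 to 4.13). A single cell held 34 of the knockout-labelled UMIs and another 17 of the control UMIs; without them 62 and 8 UMIs remained, too few for a call, with a ratio of 5.08 (2.42 to 12.3). In cluster 2 it had only 9 UMIs in the knockout-labelled library and 22 in the control library, a ratio of 0.847 (0.343 to 1.91).

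**Figure D3:**
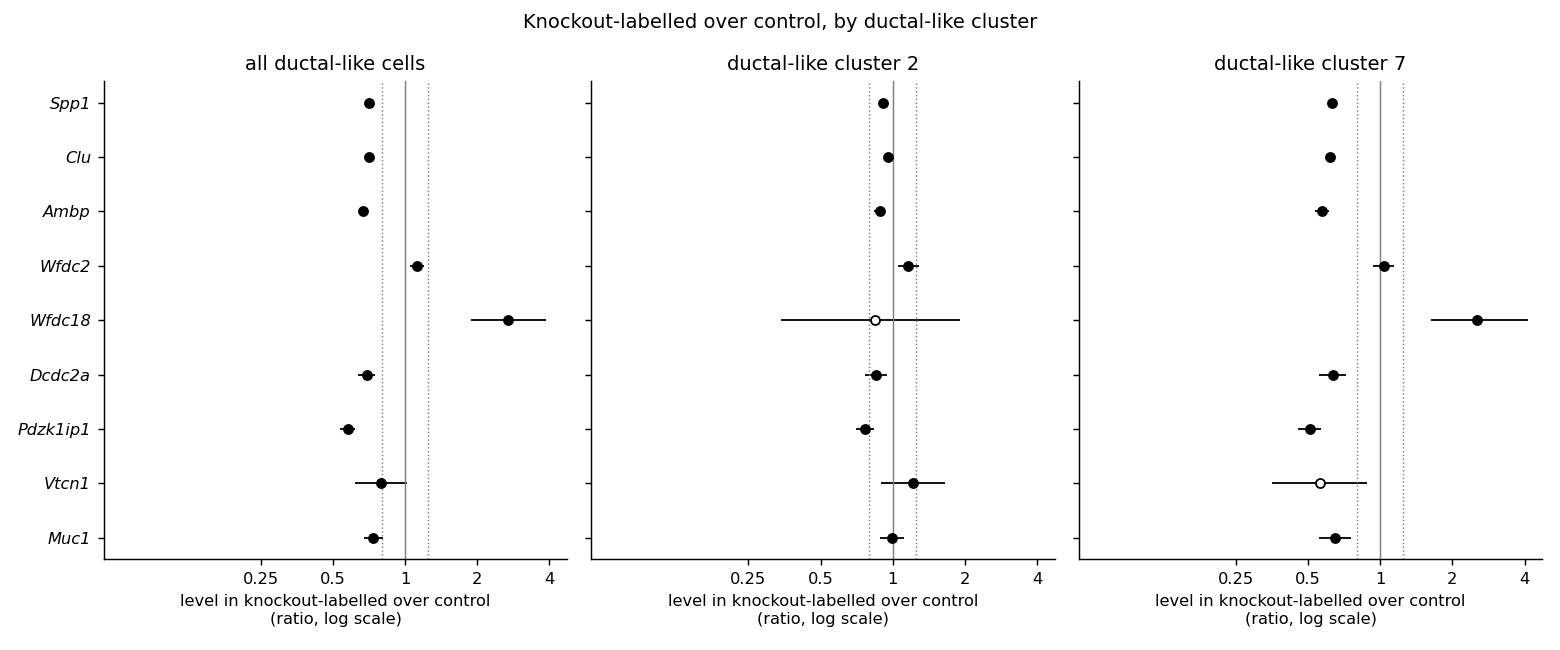
Ratio of the level in knockout-labelled over control cells (log axis, 95% counting intervals) for 9 genes in all ductal-like cells, in cluster 2 and in cluster 7; the solid line is a ratio of 1, dotted lines mark 4/5 and 5/4, and open points have under 100 UMIs. In cluster 2 most points lie between the dotted lines, and only Pdzk1ip1 is past the lower one among filled points. In cluster 7 Spp1, Clu, Ambp, Dcdc2a, Pdzk1ip1 and Muc1 lie between 0.507 and 0.649.

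The spread over single cells had the same form. In cluster 7 the median Spp1 level was 52.5 UMIs per 10000 in knockout-labelled cells and 78.6 in control cells, and the 10th percentile was 15.2 against 45.0. The median of Clu was 19.6 against 38.5 UMIs per 10000, and that of Pdzk1ip1 1.22 against 2.84. In cluster 2 the medians were closer: 93.8 against 97.7 for Spp1 and 51.8 against 54.2 for Clu. The lowest knockout-labelled cell of cluster 7 had no Spp1 UMI, whereas the lowest control cell of that cluster had 14.6 per 10000. Wfdc2 had another form, with medians of 2.83 against 3.06 UMIs per 10000 in cluster 7 and 3.07 against 2.43 in cluster 2. Its knockout-labelled median was thus the higher one in cluster 2 only.

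**Figure D4:**
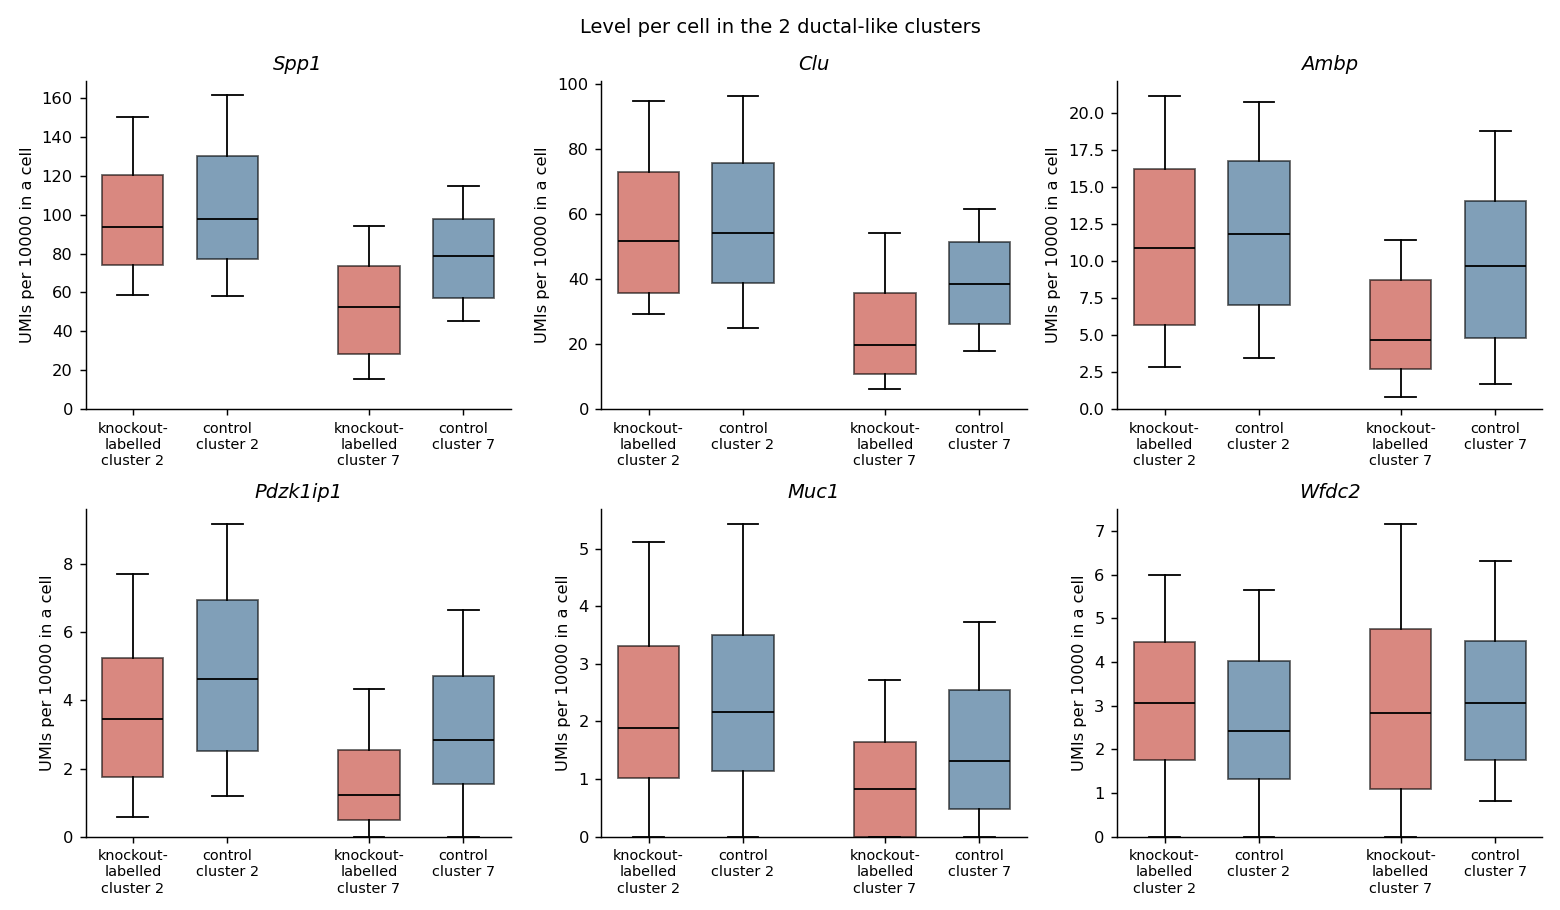
UMIs per 10000 UMIs of a cell for 6 genes in ductal-like clusters 2 and 7, knockout-labelled cells (red) beside control cells (blue); boxes span the quartiles with the median as a line, and whiskers reach the outermost cells within the 10th to 90th percentile. The Spp1 median of knockout-labelled cells in cluster 7 is 52.5, below the other 3 medians, and the knockout-labelled median of cluster 7 is also the lowest of the 4 for Clu, Ambp, Pdzk1ip1 and Muc1 but not for Wfdc2.

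Several other measures differed between the libraries in the same cells. Genes of the G2/M list summed to 6562 CPM in knockout-labelled and 9806 CPM in control cells of cluster 7, with 42 of 51 measured genes lower by the fold, against 14.8% of all genes. In cluster 2 they summed to 1770 and 1836 CPM, with 7 of 26 lower, against 9.77%. The 18 duct markers summed to 4990 and 6104 CPM in cluster 7 and to 6985 and 7552 CPM in cluster 2. The 21 acinar markers summed to 3101 and 1950 CPM in cluster 7 and to 1485 and 1706 CPM in cluster 2, and endothelial-like Cpa1, a measure of free acinar RNA, stood at 27.3 and 9.71 CPM. The part of these values in the members' ratios was not tested. When both libraries were given the control library's makeup of clusters and cycling states, a step added after seeing the data, the ratio was 0.845 for Spp1, 0.888 for Clu, 0.807 for Ambp, 0.908 for Muc1 and 0.700 for Pdzk1ip1, and Wfdc18 had 1.64. Members lower by the fold then numbered 2, Pdzk1ip1 and Dcdc2a, with Dcdc2a at 0.795. The share of all genes lower under that makeup is not given here, so this count has no background beside it.

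Over both clusters, most members were also lower in cycling than in non-cycling ductal-like cells of the same library. Cycling cells were those above 45.1 cell cycle UMIs per 10000, and 41 of the 890 ductal-like cells lay near that value. They numbered 159 in the knockout-labelled library (41.2%) and 156 in the control library (31.0%). Of these, 143 and 131 were in cluster 7 and 16 and 25 in cluster 2, so cycling state overlapped with cluster. Within cluster 7 the Spp1 median was higher in cycling cells, at 54.9 against 45.7 UMIs per 10000 (knockout-labelled) and 80.1 against 70.4 (control). The Clu median there was 23.3 against 15.2 and 37.6 against 41.6. Within cluster 2 the Spp1 median was lower in cycling cells, at 66.5 against 96.5 and 84.6 against 98.7. Vtcn1 had the lowest ratio of cycling to non-cycling level among the 10 members, 0.448 (0.287 to 0.686) in knockout-labelled and 0.534 (0.362 to 0.771) in control cells. Clu had 0.700 and 0.723, Spp1 0.726 and 0.804, and Pdzk1ip1 0.656 and 0.711. Wfdc2 was higher in cycling cells, at 366 against 299 CPM in the knockout-labelled library, a ratio of 1.22 (1.11 to 1.35), and at 322 against 280 CPM in the control library, a ratio of 1.15 (1.04 to 1.27). By the fold, 6 of 9 measured members were lower in cycling cells of the knockout-labelled library, against 13.8% of all genes, and Wfdc18 was higher, against 20.6%. Wfdc18 had 62 UMIs in those cycling cells and 43 in the non-cycling ones, and a single cycling cell held 34. Without that cell 71 UMIs remained, too few for a call, so the call and its direction rest on 1 cell. In the control library 5 of 8 were lower, against 15.6%, and none was higher, against 18.9%.

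Cluster 7 had lower levels than cluster 2 for most members in both libraries. In the knockout-labelled library 7 of 9 measured members were lower in cluster 7 by the fold, against 15.0% of all genes. Wfdc18 was higher with a ratio of 6.68 (3.38 to 15.1), against 21.1%. A single cell held 34 of its 96 UMIs in cluster 7. Without that cell its level there was 21.0 CPM, still above the 4.85 CPM of cluster 2, but too few UMIs remained for a call. In the control library 5 of 8 were lower, against 16.1%, and none was higher, against 18.3%. Wfdc18 had too few UMIs for a call there, 25 in cluster 7 and 22 in cluster 2, with a ratio of 2.22 (1.20 to 4.13). Of the 25 UMIs 17 came from 1 cell. Spp1 had a ratio of cluster 7 to cluster 2 of 0.551 (0.539 to 0.563) in knockout-labelled and 0.793 (0.778 to 0.807) in control cells, and Clu one of 0.470 and 0.726. Wfdc2 had 1.03 and 1.15.

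Members were lower in the knockout-labelled library in both cycling states over both clusters. In non-cycling ductal-like cells 6 of 8 measured members were lower by the fold in the knockout-labelled library, against 10.6% of all genes, and none was higher, against 9.57%. In cycling ones 5 of 7 were lower, against 12.8%, and none was higher, against 11.7%. Spp1 had a ratio of 0.757 in non-cycling and 0.683 in cycling cells, and Ambp one of 0.739 and 0.608. Wfdc18 had under 100 UMIs in each state, with ratios of 2.76 (1.63 to 4.80) and 2.38 (1.46 to 3.98). Within the non-cycling cells of cluster 2, 151 and 325 cells, the ratios were nearer to 1, at 0.932 for Spp1, 0.973 for Clu, 0.911 for Ambp and 0.940 for Muc1, with 0.756 for Pdzk1ip1. Among cycling cells of cluster 7 alone, 143 and 131 cells, Spp1 had a ratio of 0.670 (0.653 to 0.686) and Pdzk1ip1 one of 0.518 (0.455 to 0.590). The non-cycling cells of cluster 7 were few in the control library, 23 against 76, and had 4350 CPM of Spp1 in the knockout-labelled and 7805 CPM in the control library.

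Endocrine progenitor-like cells, 75 knockout-labelled and 57 control, had lower levels of the same secreted genes. Of 7 measured members 6 were lower by the fold, against 13.7% of 1781 genes, and none was higher, against 11.3%. Spp1 had 3333 and 5808 CPM, a ratio of 0.574 (0.544 to 0.606), Clu 2029 and 3076 CPM, a ratio of 0.660 (0.614 to 0.708), and Ambp 597 and 1061 CPM, a ratio of 0.563 (0.495 to 0.639). Wfdc2, above 1 in ductal-like cells, had 107 and 170 CPM here, a ratio of 0.628 (0.457 to 0.859). Muc1 had 154 and 134 CPM, a ratio of 1.15 whose interval (0.850 to 1.56) includes 1.

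Acinar-like cells carried Clu, Ambp and Muc1, and also Spp1, Wfdc2 and Pdzk1ip1, well above the free-RNA level. They numbered 756 in the knockout-labelled library and 108 in the control library, and came from cluster 5, with 314 and 105 cells, and cluster 4, with 442 and 3 cells. Over the class, 2 of 6 measured members were higher, against 37.7% of all genes, and 3 were lower, against 12.4%. The lower members were Spp1, with a ratio of 0.373 (0.337 to 0.414), Pdzk1ip1, with 0.356 (0.250 to 0.516), and Wfdc2, with 0.642 (0.506 to 0.822). Within cluster 5 Spp1 had a ratio of 0.566 and Wfdc2 one of 0.817 whose interval (0.619 to 1.09) includes 1. Ambp had 335 and 246 CPM, a ratio of 1.36 with an upper bound of 1.55, and Muc1 had 88.3 and 57.5 CPM, a ratio of 1.53 (1.18 to 2.03). Clu had 993 and 910 CPM over the class. Within cluster 5 it was on the other side of 1, with 712 and 843 CPM, a ratio of 0.844 (0.779 to 0.916). In the same cluster 5, which both libraries fill, Ambp had 76.0 CPM in knockout-labelled and 204 CPM in control cells, a ratio of 0.372 (0.307 to 0.452). Ambp stood at 450 CPM in the 442 knockout-labelled cells of cluster 4, so the direction of Ambp, like that of Clu, differed between the class and the cluster both libraries fill. Muc1 in cluster 5 had 66.6 and 59.5 CPM, with an interval of the ratio (0.832 to 1.52) that includes 1. In that cluster 2 of 5 measured members, Spp1 and Ambp, were lower by the fold, against 10.3% of all genes, and none was higher, against 17.4%.

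Spp1 was also seen in macrophage-like cells, for which osteopontin is a known product. They had 122 CPM (55 UMIs) in the knockout-labelled library and 210 CPM (88 UMIs) in the control library, above the 16.6 and 31.5 CPM of endothelial-like cells. Of these UMIs 17 and 31 came from 1 cell each. Ambp had 65.2 and 50.5 CPM in beta-like cells and 47.4 CPM in alpha-like cells of both libraries, against 4.88 and 2.43 CPM in endothelial-like cells. Pdzk1ip1 had 30.2 and 42.6 CPM in beta-like and 35.5 and 54.9 CPM in alpha-like cells, where endothelial-like cells had 0 and 1 UMI. Wfdc2 had 43.9 and 62.1 CPM in mesothelial-like cells, from 63 and 100 UMIs in 43 and 64 cells.

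Other genes of the members' families and pathways gave mixed counts in ductal-like cells, where 11.0% of all genes were higher and 10.6% lower by the fold. Of 3 measured genes of the whey acidic protein family outside the members, 2 were higher by the fold and none lower. Wfdc15b had 330 CPM in knockout-labelled and 225 CPM in control cells, a ratio of 1.47 (1.36 to 1.58), and Wfdc3 had 62.0 and 39.3 CPM, a ratio of 1.58 (1.32 to 1.88). Both were higher by the fold within cluster 2 (1.26 and 1.27, the interval of the Wfdc3 ratio including 1) and within cluster 7 (1.62 and 1.91). The family's median log2 ratio was 0.55, against 0.03 over all genes.

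Against the same 11.0% and 10.6% of all genes, 1 of 15 measured genes of ductal fluid secretion was higher and 5 were lower, with a median log2 ratio of -0.19. Car9, a carbonic anhydrase, had 60.4 and 90.8 CPM, a ratio of 0.665 (0.574 to 0.769), while Atp1b1, a subunit of the sodium pump, had 669 and 799.8 CPM, a ratio of 0.836 (0.799 to 0.875) that is within the fold. Car9 had a ratio of 0.846 (0.690 to 1.03) in cluster 2 and 0.546 (0.437 to 0.682) in cluster 7. For Atp1b1 these were 0.983 and 0.752, the latter past the fold. Of 16 measured duct regulators none was higher and 4 were lower. Hes1, a Notch target, had a ratio of 0.780 (0.755 to 0.806) while Sox9, a duct transcription factor, had 653 and 716 CPM and a ratio of 0.911 (0.870 to 0.955). Vldlr, a clusterin receptor, was lower at 0.694 (0.507 to 0.943). Within clusters 2 and 7 its ratios were 0.823 and 0.729, with intervals that include 1, the latter from under 100 UMIs. Of 4 measured genes for osteopontin's relatives and receptors, the integrin chain Itgb5 was higher at 1.86 (1.27 to 2.73) and none was lower. Itgb5 had under 100 UMIs in each cluster, with ratios of 1.15 (0.63 to 2.04) in cluster 2 and 2.98 (1.58 to 6.13) in cluster 7. Of 10 measured genes of cilia and doublecortin relatives, with a median log2 ratio of -0.03, Pkd2 was higher at 1.30 (1.07 to 1.59). Pkhd1, the gene of a ciliary membrane protein, was lower with an interval of 0.650 to 0.863. Within clusters 2 and 7 Pkhd1 had ratios of 0.844 and 0.843, both within the fold, and Pkd2 had 1.16 and 1.335. All cluster intervals of Pkhd1 and Pkd2 include 1. The B7 relative Cd276 was past the fold at 1.33, with an interval (0.965 to 1.83) that includes 1. Of 8 genes listed for comparison with bikunin, only Spint1 and Spint2 reached 100 UMIs, and both were within the fold. No other membrane mucin reached 100 UMIs.

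The members' patterns over the 18 sums of class and library had close matches among 11142 genes, given as Pearson correlations of log2(CPM + 10) that share libraries and depth. Dcdc2a was most like Ppp1r1b (0.99), Vtcn1 most like Ces1d (0.99), Muc1 most like Wfdc15b (0.99) and Ambp most like Sox9 (0.99). Clu was most like another member, Muc1 (0.98), Pdzk1ip1 most like Grb7 (0.98), Wfdc2 most like Rab27b (0.98) and Spp1 most like Slc28a3 (0.97). The matches of Wfdc18 (Itgb8, 0.91) and Cftr (Alad, 0.92) were weaker, and these 2 members had 0.85 with each other, in sums of few UMIs. Across single ductal-like cells thinned to 2000 UMIs the highest Spearman correlation among the 45 pairs was 0.47 in the knockout-labelled library, between Spp1 and Clu, and 0.28 in the control library, between Clu and Ambp. After the same thinning, the median ductal-like cell had a UMI of 4 of the 10 genes in the knockout-labelled and of 5 in the control library.

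The authors' deposited table, which compares 14 clusters with other cells rather than the 2 libraries, lists 7 of the members and not Wfdc18, Vtcn1 or Cftr. In the authors' deposited table Spp1 stood in place 3 of 146 genes of the cluster led by the keratin Krt18. In the authors' deposited table Clu stood in place 23 of 267 genes of the cluster led by Mcm6, a replication gene, which also lists Pdzk1ip1 and Wfdc2.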

How the data were processed

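Single cells of 1 knockout-labelled and 1 control pancreas were captured with Chromium Single Cell 3′ v2 kits, per the labels' protocols. The deposited matrices hold raw UMI counts per gene and barcode; per the file headers they came from software version 3.0.0, and Cell Ranger, Seurat 2 and 3, GRCm38 and mm10 are named in the submitters' processing notes. The authors' deposited table of cluster genes was used for its gene names and their order only. Its p-values and its score, a log fold change of unknown base, were computed by the authors and are not printed.

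Cells with at least 500 genes and at most 10% mitochondrial UMIs were kept, less 29 knockout-labelled and 26 control doublets called by Scrublet (0.890% and 0.987%). Counts were scaled to 10000 per cell, logged, reduced from 2000 variable genes to 30 components, joined to 15 neighbours and clustered by Leiden at resolution 1 into 24 clusters. A cluster was named from at least 3 markers among its 50 leading genes. The members were left out of variable genes and markers. Cell cycle genes were left out and 2 cell cycle scores regressed; this was decided after a first clustering, with those genes in, had been seen with the members' levels, because it left the cycling duct cells unnamed. That first clustering is given as an alternative.

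UMIs were summed per library and class and divided by the class total (CPM). A gene with at least 100 UMIs over both libraries was called at 5/4 or 4/5 of the control level. Cycling state came from a mixture of 2 Gaussians on cell cycle UMIs. Promoters are from RefSeq (GRCm38.p6) and gene models from GENCODE vM21. All members are named, with, of each list, the 2 genes of highest UMI count and the 2 whose ratio interval lay furthest from 1, and the best match in pattern, except that some genes are not reported here. The members, lists and motifs were chosen with earlier results of these data known. The ratio calculation was tested on simulated data. Alternatives varied filters, clustering, totals, depth, thresholds and free RNA. Clustering used scanpy 1.11.5 and leidenalg 0.10.2, the mixture scikit-learn 1.9.0 and the intervals SciPy 1.17.1, in Python 3.11.15.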

Additional observations from a re-analysis of the deposited data

Results flagged for a closer look

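In 5 instances a member's ratio of knockout-labelled to control level, with its counting interval, lay above 1 in a cell class and below 1 in another; the difference between the classes was not tested. Clu had a ratio of 1.09 in acinar-like cells, and was below 1 in ductal-like, endocrine progenitor-like and beta-like cells. Within acinar-like cluster 5 it was 0.844, also below 1. Over all measured genes of acinar-like cells the median log2 ratio was 0.18. Clu, at 0.13, lay below that median, while Ambp, at 0.44, and Muc1, at 0.62, lay above it. Clu also had a ratio of 2.78 in endothelial-like cells, from 38 UMIs in knockout-labelled and 22 UMIs in control cells; 12 of the 38 came from 1 cell, and without the cell of each library with most UMIs the ratio was 2.02 (1.09 to 3.77). Ambp had a ratio of 1.36 in acinar-like cells and was below 1 in ductal-like and progenitor-like cells; within acinar-like cluster 5 it was 0.372. Wfdc2 had a ratio of 1.12 in ductal-like cells and was below 1 in acinar-like, progenitor-like and mesothelial-like cells. Within acinar-like cluster 5 its ratio was 0.817, with an interval (0.619 to 1.09) that includes 1. Muc1 had a ratio of 1.53 in acinar-like cells and was below 1 in ductal-like cells, with 1.12 in acinar-like cluster 5.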

How the results depend on the processing

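The count of 7 lower members in ductal-like cells stayed between 5 and 8 under the alternatives listed in advance, except that at a fold of 1.5 it was 1 (Pdzk1ip1), with 1 in non-cycling and 2 in cycling cells. With the alternatives added after seeing the data it was 6 with cell cycle genes left in the clustering, 1 in cluster 2 alone and 2 with the control library's makeup. Apart from cluster 2 (9.77% lower and 8.52% higher), the shares of all genes past the fold under the alternatives are not given here. Counts of members under the other alternatives therefore have no background beside them. The call of Wfdc18 as higher was less stable. The count of higher members was 0 with no limit on mitochondrial UMIs, 0 at Leiden resolution 2, 0 with cell cycle genes left in the clustering and 0 in cluster 2 alone. Its ratios in those 4 settings were 1.36, 1.59, 3.16 and 0.847, the last on the other side of 1. In each of them it had under 100 UMIs and so could not be called; in the first 3 the ductal-like class was smaller, with 241, 253 and 232 knockout-labelled and 385, 417 and 363 control cells. Why the ratio moved was not tested. Vtcn1 was on the other side of 1 in cluster 2 alone (1.22) and with the control library's makeup (1.05). Wfdc18 had its highest ratios when cells were thinned to 2000 UMIs (4.06) and with each library clustered alone (3.72). Over all settings Wfdc2 lay between 1.03 and 1.16 and Pdzk1ip1 between 0.507 and 0.769. No paired analysis was possible because each group has 1 library, and no replicate could be left out for the same reason.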
